A study of Mus musculus with 24 samples.

Results

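Cytokine receptor transcripts were followed in CD8 T cells sorted from the pancreas and blood of mice that develop pancreatic lesions. The set comprised 10 interleukin receptor genes, chosen by symbol, of 24421 genes in the count files: Il2ra, Il2rb, Il2rg, Il7r, Il15ra, Il4ra, Il21r, Il6ra, Il18r1 and Il10ra. All 10 were found, and each entered every comparison. The cells had been gated on CD45, CD3 and CD8, and their RNA was sequenced in 24 libraries. KC mice, a strain that forms preinvasive lesions in the pancreas with age, gave 12 pancreas libraries (3 at 4 weeks of age, 2 at 9, 3 at 13, 2 at 20 and 2 at 30) and 9 blood libraries (2 at 4 weeks, 1 at 9, 3 at 13, 1 at 20 and 2 at 30). Wild-type (WT) B6 mice gave 2 pancreas libraries, 1 at 9 and 1 at 30 weeks, and 1 blood library at 30 weeks. The labels give neither the alleles nor the promoters behind the KC strain. They do not say whether a library is 1 animal or a pool, so p-values measure the spread between libraries. In KC against WT this is the spread between KC libraries only, since WT had 1 library per tissue and age. In this bulk RNA, fewer cells that carry a receptor and less RNA per cell cannot be told apart.

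Il2rg encodes the common gamma chain, the signalling subunit shared by the receptors for IL-2, IL-4, IL-7, IL-9, IL-15 and IL-21. It pairs with a private chain for each ligand, and JAK1 and JAK3 bound to the chains then phosphorylate STAT factors. In CD8 T cells, IL-7 maintains naive and memory cells, IL-15 maintains memory cells through the beta chain Il2rb, and IL-2 drives expansion through the high-affinity chain Il2ra. Il4ra and Il21r are the private chains for IL-4 and IL-21. Il6ra, Il18r1 and Il10ra work apart from the gamma chain, with the partners Il6st, Il18rap and Il10rb, and the IL-18 receptor signals through MyD88.

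Assigned reads per library ran from 6352070 to 16716169, and the 10 receptor genes together held 14085 to 55717 of them. The defining markers matched the sort, with 1581851 counts of Cd3e and 323977 of Cd8a over the 24 libraries against 6635 of Cd4. Genes that were high in 1 library left traces in others, which divided the libraries into 2 sets of 12. Over 95 such genes, traces were detected in 92.4% of libraries of the source's own set and 47.7% of the other set. None of these genes was a receptor gene studied here, and the median trace in the own set was 0.205% of the source's level. The sets were formed from the detection of these same genes, so the 2 shares describe the sets and do not test them. Set 1 held the KC pancreas libraries of 4 and 13 weeks, all WT libraries, and from KC blood Sample_131B8 with the 4-week Sample_42B8 and Sample_43B8, and set 2 held the rest, so each age of KC pancreas lies in 1 set only.

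By the mm10 annotation, Il2ra (chr2:11642807-11693193) and Il15ra (chr2:11705290-11734317) are neighbours on the plus strand, as are Il4ra (chr7:125552120-125579474) and Il21r (chr7:125603429-125633570). Il2rg lies at chrX:101264378-101268255, Il7r at chr15:9505788-9530176, Il2rb at chr15:78479256-78495271, Il6ra at chr3:89864059-89913196 and Il10ra at chr9:45253837-45269149, all on the minus strand, and Il18r1 at chr1:40465552-40500854 on the plus strand.

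The median levels of the receptor genes spanned more than 3 orders of magnitude. Per kilobase of exon, the median over 24 libraries was 380 CPM (read counts of a gene scaled by the library's total over genes) for Il2rg, 223 for Il7r, 47.0 for Il2rb, 43.2 for Il21r, 24.2 for Il18r1, 18.6 for Il6ra, 4.90 for Il4ra, 1.10 for Il15ra, 1.06 for Il2ra and 0.338 for Il10ra. Il7r was above Il2rb in 24 of 24 libraries and Il2rg above Il7r in 20. Every pair of neighbours in this order had overlapping ranges. Il2rb exceeded Il21r in 13 libraries and Il15ra exceeded Il2ra in 10, so those neighbours did not differ beyond their spread. Il2rg and Il7r together made up 67.1% to 97.3% of the summed CPM per kilobase of the 10 genes, with a median of 76.9%.

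**Figure D1:**
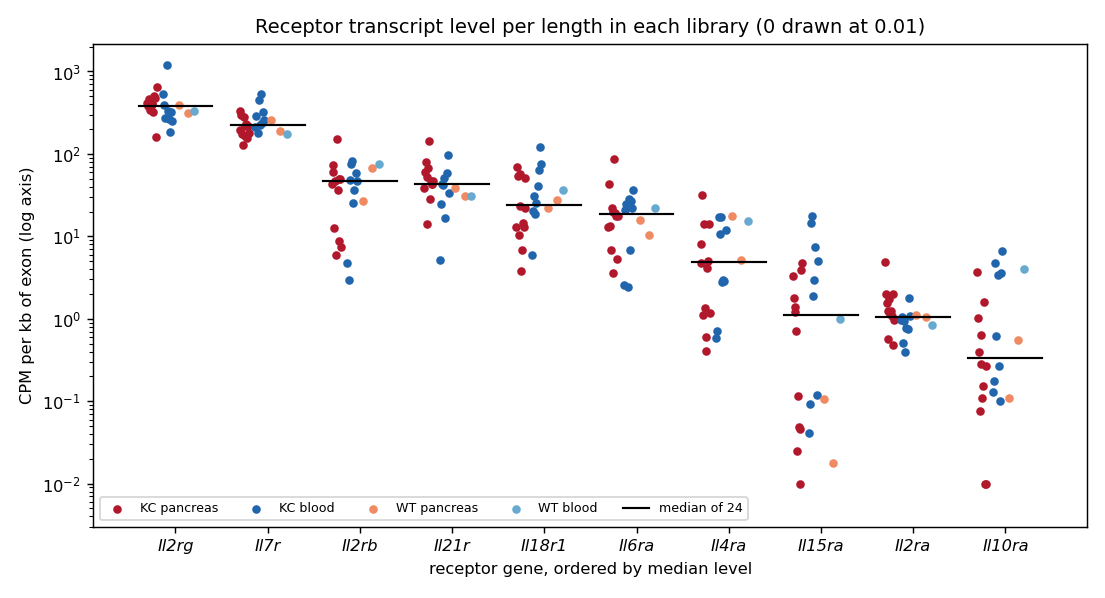
CPM per kilobase of exon (log axis) of each receptor gene in each of the 24 libraries, coloured by group; black lines are medians and libraries at 0 are drawn at 0.01. Il2rg and Il7r lie above the other genes with medians of 380 and 223, and Il15ra and Il10ra scatter from 0 to 17.8 and 6.72.

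Il2rg transcript was abundant in every library. It ranged in KC pancreas from 387 CPM in Sample_302P8 to 1556 CPM in Sample_303P8, both of 30 weeks, with a median of 966. KC blood ranged from 438 CPM in Sample_205B8 to 2867 CPM in Sample_131B8, with a median of 778. The WT libraries had 938 and 739 CPM in pancreas and 792 in blood. The groups overlapped almost entirely, and the difference between KC tissues, with age in the model, was a log2 fold change of 0.15 (SE 0.42; edgeR adjusted p = 0.949). The signs were opposite within the trace sets, and set 1 held only 3 KC blood libraries. Those were Sample_131B8 at 2867 CPM, Sample_42B8 at 1257 and Sample_43B8 at 925, beside 764 to 1104 CPM in the KC pancreas libraries of set 1. The estimate was -1.25 in set 1 (SE 0.48; edgeR p = 0.0148 before and 0.348 after adjustment) and 1.24 in set 2 (SE 0.41; edgeR p = 0.00506 before and 0.545 after adjustment). In blood the fitted age slope of Il2rg was -0.79 log2 per 10 weeks (SE 0.51), and 0.29 (SE 0.33) with trace set as a term. The first of these differed from the pancreas slope by 0.88 (SE 0.52; edgeR adjusted p = 0.693).

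Il7r, the IL-7 receptor alpha chain, had the smallest spread of the 10 genes, an SD of 0.47 on the log2(CPM + 1) scale over 24 libraries, against 0.58 for Il2rg and 2.06 for Il15ra, the largest. Its KC pancreas libraries lay between 605 CPM in Sample_95P8 and 1527 CPM in Sample_42P8 (median 969), and its KC blood libraries between 839 CPM in Sample_95B8 and 2471 CPM in Sample_133B8 (median 1217). WT pancreas had 1201 and 883 CPM and WT blood 819. Blood was higher than pancreas in 7 of 9 KC pairs of libraries that share a number in their titles. The fitted log2 fold change of -0.19 (SE 0.33; edgeR adjusted p = 0.906) was within its error.

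Il2rb, the beta chain of the IL-2 and IL-15 receptors, separated the libraries into high and low ones. No library lay between 60 and 100 CPM. In KC pancreas the 4-week libraries had 184, 312 and 259 CPM, the 9-week ones 54.8 and 199, the 13-week ones 25.4, 653 and 154, the 20-week ones 37.3 and 213, and the 30-week ones 213 and 31.6. Each age from 9 weeks on therefore held 1 low library, and the 4 low ones came from both trace sets. In KC blood the low libraries were the 2 of 4 weeks, at 20.1 and 12.6 CPM, while the 7 later ones ran from 108 to 357 CPM with no overlap. WT libraries had 115 and 292 CPM in pancreas and 326 in blood. Natural killer cells also carry Il2rb. Their markers summed to 1119 and 286 CPM in the 4-week KC blood libraries and to 159 to 446 CPM in the later ones. Of this list Ncr1 had 1 count over all KC blood libraries, so the sums came almost wholly from its other markers. The part of such cells in the Il2rb level was not tested. The fitted difference between KC tissues was 0.70 (SE 0.60; edgeR adjusted p = 0.761), or 0.21 to 1.01 with 1 library left out, and the age slopes were -0.39 (SE 0.56) in pancreas and 0.34 (SE 0.67) in blood. Without the 4-week libraries the blood slope was -0.45.

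Il2ra, the chain that gives high-affinity IL-2 binding and marks activated or regulatory T cells, was low throughout. KC pancreas ran from 2.78 to 28.2 CPM (median 7.13) and KC blood from 2.25 to 10.2 CPM (median 5.39), and WT had 6.27, 5.98 and 4.85 CPM. The highest library was Sample_41P8 at 4 weeks. Pancreas exceeded blood in 7 of 9 pairs of a shared title number, with a fitted log2 fold change of 0.94 (SE 0.90; edgeR adjusted p = 0.801).

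**Figure D2:**
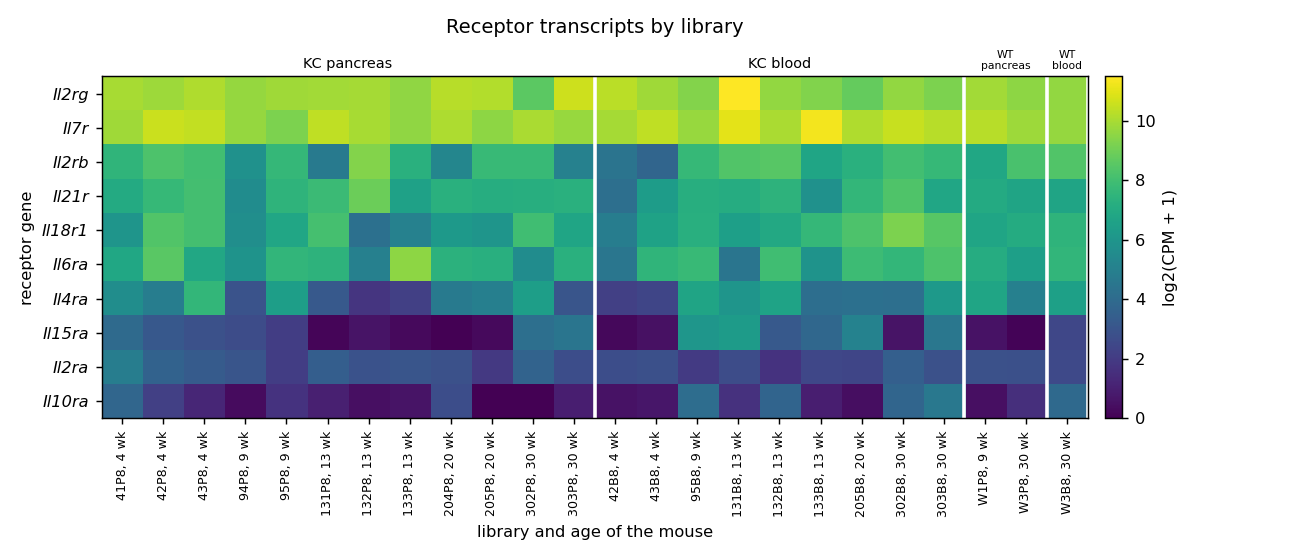
Colour gives log2(CPM + 1) of each receptor gene (rows, ordered by level per kilobase) in each library (columns, by group and age). Il15ra is dark in the 5 KC pancreas libraries of 13 and 20 weeks and in both WT pancreas libraries, and Il2rb is low in the 2 KC blood libraries of 4 weeks.

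Il15ra, which binds IL-15 and presents it to cells that carry Il2rb and Il2rg, was at 3.20 CPM or more in KC pancreas at 4, 9 and 30 weeks and at most 0.517 CPM at 13 and 20 weeks. KC pancreas had 14.6, 7.95 and 6.11 CPM at 4 weeks, 5.39 and 3.20 CPM at 9 weeks, 0.111, 0.517 and 0.217 CPM at 13 weeks, 0 and 0.206 CPM at 20 weeks, and 17.6 and 21.1 CPM at 30 weeks. Means were 9.55 ± 4.46 CPM (SD, n = 3) at 4 weeks, 4.3 ± 1.55 (n = 2) at 9, 0.282 ± 0.211 (n = 3) at 13, 0.103 ± 0.146 (n = 2) at 20 and 19.3 ± 2.50 (n = 2) at 30. The libraries of 13 and 20 weeks were all below those of every other age, and those of 30 weeks all above. Both sets of traces contained high and low ages.

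A straight line cannot describe such a course, and the fitted slope was 0.39 log2 per 10 weeks (SE 0.57). A test of any difference between the 5 ages, chosen after these values were seen, gave p = 0.0322 before adjustment and 0.162 after it with edgeR, where the adjusted p ran from 0.162 to 0.317 over other scaling, filter and libraries left out. With TMM scaling, the filter and all KC pancreas libraries, Il15ra alone of the 10 had an unadjusted p under 0.05. With RLE scaling the edgeR p before adjustment was 0.0412 for Il15ra, 0.0238 for Il2rb, 0.0241 for Il21r and 0.0353 for Il6ra. Leaving out Sample_132P8, Il6ra had an edgeR p of 0.00829 before and 0.0903 after adjustment. The test of any age difference called 0 of the 10 receptor genes in KC pancreas and 6.56% of the 10552 genes tested. In KC blood it called 0 of 10 receptor genes against 2.8% of 12265 genes, and the smallest p, the only one of the 10 under 0.05 before adjustment, was that of Il2rg, 0.0257 before and 0.262 after adjustment. Over all genes, 2575 in pancreas and 1737 in blood had an unadjusted p under 0.05 in this test. Leaving out 1 blood library at a time, the adjusted p of Il2rg ran from 0.0359 without Sample_132B8, where edgeR called it (p = 0.00104 before adjustment), to 0.761.

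In KC blood Il15ra was at 0.182 and 0.412 CPM at 4 weeks, 64.7 at 9 weeks, 79.1, 8.34 and 13.2 at 13 weeks, 33.4 at 20 weeks, and 0.530 and 22.5 at 30 weeks. The 4-week libraries, lowest of the blood, faced the 4-week pancreas libraries at 6.11 CPM or more, whereas at 13 and 20 weeks every blood library was above every pancreas library. Il15ra was at or below 1 CPM in 10 of 24 libraries. Beside the highest library of set 1, Sample_131B8, 7 of the 11 other set-1 libraries held 1 to 5 counts, or 0.101% to 0.653% of its level, which is the size of the traces described above. Over all ages the KC tissues differed by a log2 fold change of -3.52 (SE 1.86; edgeR adjusted p = 0.539), lower in pancreas in 6 of 9 pairs of a shared title number. The estimate ran from -4.34 to -1.75 with 1 library left out, and was -5.05 without the 4-week libraries (edgeR p = 0.00439 before and 0.226 after adjustment).

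Markers of other cells differed between the same pancreas libraries. Myeloid markers, whose cells also carry Il15ra, summed to 183, 110 and 112 CPM at 4 weeks, 3.29 and 27.5 at 9, 12.5, 155 and 3.26 at 13, 10.9 and 3.19 at 20, and 499 and 65.2 at 30 weeks. Library Sample_132P8 of 13 weeks combined 155 CPM of myeloid markers with 0.517 CPM of Il15ra. In blood, Sample_131B8 had the highest Il15ra and 3.76 CPM of myeloid markers. Sample_95B8, with 64.7 CPM of Il15ra, had the highest myeloid sum in blood, 430 CPM. Markers of helper and regulatory T cells summed to 139 to 458 CPM at 4 weeks and 61.0 and 70.6 CPM at 9 weeks. They summed to 64.0, 111 and 59.4 CPM at 13 weeks, 123 and 82.4 at 20, and 233 and 224 at 30. Of this list, Cd4 reached at most 39.4 CPM and Foxp3 30.6 CPM in KC pancreas. The largest sums therefore came mostly from its other markers, Ikzf2, Ctla4 and Cd40lg. The part of other cells in the Il15ra levels was not tested.

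The receptor genes with a match to a cytokine-response motif before an annotated start were Il15ra, Il18r1 and Il7r, and the matched stretches are shown for that reason. RefSeq promoters (build GRCm38.p6) matched 8 of the 10 genes with 11 starts. The 250 bases before each start were searched on both strands for the AP-1 motif TGANTCA, present before 6.75% of 32851 starts, for the gamma activated site TTCNNNGAA bound by STAT factors, present before 7.02%, and for the interferon response element, present before 2.98%. Matches of different motifs did not overlap, and capitals mark the motif. The Il15ra stretch lies at chr2:11705672-11705698 on the plus strand, before the second of its starts, those of Il18r1 at chr1:40465777-40465805 and chr1:40465844-40465872 on the plus strand, before the third of its starts, and that of Il7r at chr15:9530000-9530028 on the minus strand. No expression value was tested against these matches.
Il15ra, AP-1: gtggggatgcTGAGTCAcagatctgtc
Il18r1, gamma activated site: tcggggttagTTCTGGGAActgtggagct
Il18r1, gamma activated site: agtacaggtcTTCCCAGAActgaaagctt
Il7r, gamma activated site: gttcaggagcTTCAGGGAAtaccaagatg

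Il4ra, the IL-4 receptor alpha chain, was also variable. In KC pancreas it ran from 2.46 CPM in Sample_132P8 to 193 CPM in Sample_43P8 with a median of 26.8, and in KC blood from 3.55 to 104 CPM with a median of 17.9. The 4-week blood libraries were the lowest at 3.55 and 4.22 CPM, and the later ones had at least 16.8. B cell markers, whose cells carry Il4ra, were also low in those 4-week libraries, at 1.18 and 1.85 CPM, and ran from 5.96 to 86.6 CPM later. Both were highest of KC blood in Sample_95B8, at 86.6 CPM of markers and 104 CPM of Il4ra. The markers summed to 2.42 CPM in Sample_43P8, highest in Il4ra, and to 45.4 CPM in Sample_205B8 with 17.9 CPM of Il4ra. The part of B cells in the Il4ra level was not tested. The fitted log2 fold change between tissues was -0.17 (SE 1.07; edgeR adjusted p = 0.983).

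Il21r, the receptor of the follicular helper cytokine IL-21, lies beside Il4ra on chromosome 7. It ranged from 46.5 to 483 CPM in KC pancreas (median 155) and from 17.4 to 319 CPM in KC blood (median 138), and WT had 130, 104 and 102 CPM. Pancreas exceeded blood in 7 of 9 pairs of a shared title number, and the fitted log2 fold change was 0.85 (SE 0.52; edgeR adjusted p = 0.629). Within trace set 2 it was 0.01. Library Sample_132P8 held both the highest Il21r and, at 653 CPM, the highest Il2rb.

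Il6ra, the IL-6 binding chain of naive and memory T cells, reached 746 CPM in Sample_133P8 and otherwise ran from 31.3 to 375 CPM in KC pancreas. KC blood ran from 20.8 CPM in Sample_131B8 to 312 CPM in Sample_303B8 (median 192) and WT had 136, 89.5 and 188 CPM. The fitted difference between tissues was 0.57 (SE 0.59; edgeR adjusted p = 0.822), with 1.37 within trace set 1 and -0.51 within set 2. Its signalling partner Il6st had a median level over 24 libraries of 76.1 CPM per kilobase, beside 18.6 for Il6ra.

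Il18r1, the ligand-binding chain for the inflammatory cytokine IL-18, stood higher in older than in younger KC blood. It was at 28.5 and 98.6 CPM at 4 weeks, 149 at 9 weeks, 89.5, 122 and 198 at 13 weeks, 311 at 20 weeks, and 590 and 365 at 30 weeks. The 3 libraries of 20 and 30 weeks were above the other 6, and the WT blood library of 30 weeks, at 177 CPM, was below them. That WT library is of trace set 1 and those 3 KC libraries are of set 2. The slope in KC blood was 0.79 log2 per 10 weeks (SE 0.41), with p = 0.0627 before and 0.585 after adjustment by edgeR. The test of any difference between the 5 ages gave p = 0.565 before and 0.873 after adjustment by edgeR. In KC pancreas the levels were 62.1, 331 and 261 CPM at 4 weeks, 50.6 and 112 at 9, 274, 18.1 and 32.5 at 13, 70.7 and 63.4 at 20, and 248 and 105 at 30, with no such order. The difference of the slopes, pancreas minus blood, was -0.87 (SE 0.54; edgeR adjusted p = 0.715). The 3 set-1 KC blood libraries (Sample_42B8, Sample_43B8 and Sample_131B8), of 4 and 13 weeks, were all below 100 CPM and the 6 of set 2, of 9 weeks or more, all above, so that age and trace set overlap. The slope was 0.92 (SE 0.47) with trace set as a term and 0.77 (SE 0.50) without the 4-week libraries. Its partner chain Il18rap had a median level over 24 libraries of 1.62 CPM per kilobase, beside 24.2 for Il18r1.

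Il10ra, the ligand-binding chain for the inhibitory cytokine IL-10, was at or below 1 CPM in 12 of 24 libraries. Among 12 KC pancreas libraries it exceeded 10 CPM only in Sample_41P8 at 12.9, and the median was 0.970. In KC blood it was at 0.455 and 0.617 CPM at 4 weeks, 16.4 at 9, 2.14, 12 and 0.927 at 13, 0.356 at 20, and 12.4 and 23.5 at 30 weeks, so 4 of 9 libraries exceeded 10 CPM. WT blood had 14 CPM and WT pancreas 0.380 and 1.91. B cell markers were highest in Sample_41P8 at 96.1 CPM and in Sample_95B8 at 86.6 CPM, both high in Il10ra. They summed to 5.96 CPM in Sample_302B8 with 12.4 CPM of Il10ra and to 45.4 CPM in Sample_205B8 with 0.356, and their part in the Il10ra level was not tested. The fitted log2 fold change between tissues was -1.73 (SE 1.5; edgeR adjusted p = 0.768), and blood was higher in 7 of 9 pairs of a shared title number. That estimate was 0.27 within trace set 1 and -3.26 within set 2, and ran from -2.41 to -1.04 with 1 library left out. The slopes were -0.89 (SE 0.78) in pancreas, or -1.34 to -0.30 with 1 library left out, and 0.87 (SE 0.77) in blood, and their difference was -1.75 (SE 1.16; edgeR adjusted p = 0.739).

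**Figure D3:**
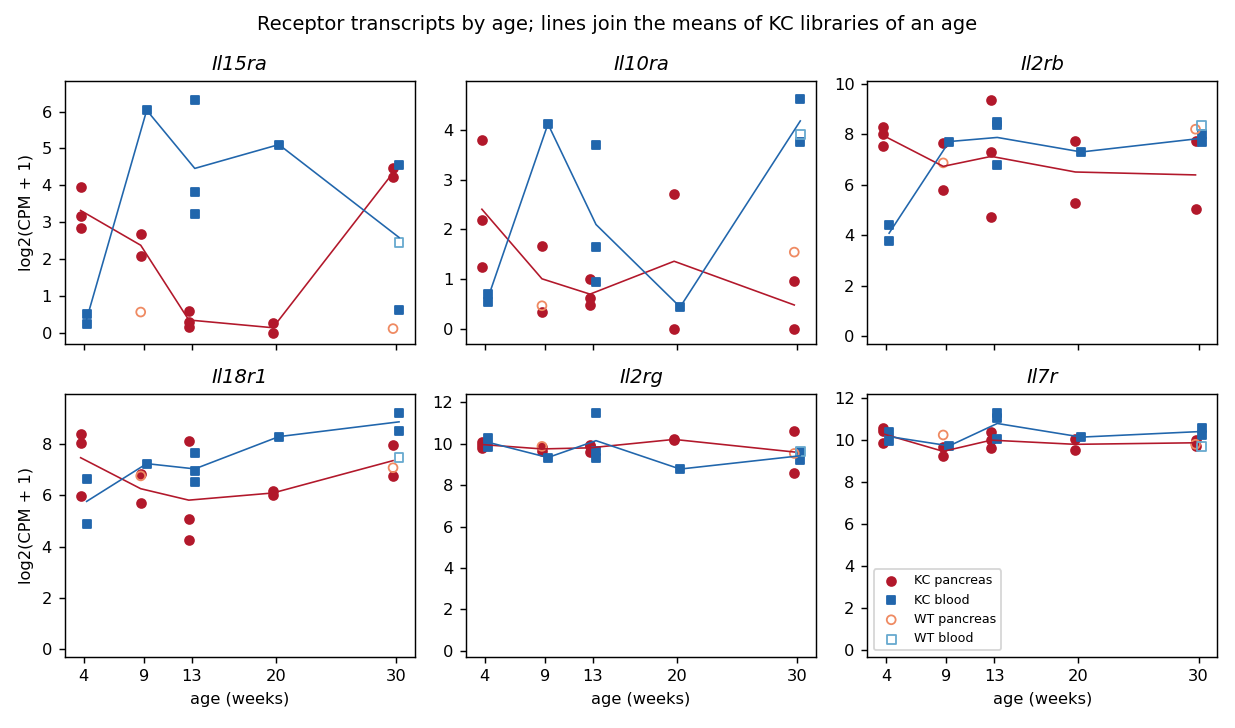
log2(CPM + 1) against age in weeks for 6 receptor genes; filled circles are KC pancreas, filled squares KC blood, open symbols WT, and lines join the means of KC libraries of an age. Il15ra in KC pancreas falls to near 0 at 13 and 20 weeks and is above 4 at 30 weeks, and Il18r1 in KC blood is highest at 30 weeks.

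No receptor gene passed the test between KC pancreas and KC blood, where 0.0904% of 11059 genes did. With edgeR 0 of 10 had an adjusted p under 0.05 and 0 of 10 an unadjusted p under 0.05, beside 1089 of all genes unadjusted. DESeq2 called 505 of 9088 genes and 0 of the 9 receptor genes it gave a p. Il15ra had none there, with a DESeq2 log2 fold change of -3.49 (SE 1.0). Estimates were positive for 5 genes and negative for 5, with a median log2 fold change of -0.01 beside -0.12 for all genes tested. SEs ran from 0.33 for Il7r to 1.86 for Il15ra.

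The age trends gave the same count. In KC pancreas edgeR called 0 of 10 receptor genes against 0.293% of 9555 genes. None of the 10 had an unadjusted p under 0.05, beside 855 of all genes tested. Slopes were negative for 8 of 10, between -0.89 and 0.39 log2 per 10 weeks, with a median of -0.22 against -0.04 over all genes. In KC blood edgeR called 0 of 10 receptor genes and 0% of 9933 genes, and DESeq2 called 0 of the 8 receptor genes it gave a p (Il2rg and Il15ra had none) and 412 genes in all, with 870 genes at an unadjusted p under 0.05 in edgeR. Slopes there were positive for 6 of 10, between -0.79 and 0.87, with a median of 0.14. For the difference of the trends, 0.0543% of 11059 genes and 0 of 10 receptor genes were called. None of the 10 had an unadjusted p under 0.05, beside 921 of all genes tested, and the smallest adjusted p was 0.693, that of Il2rg.

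**Figure D4:**
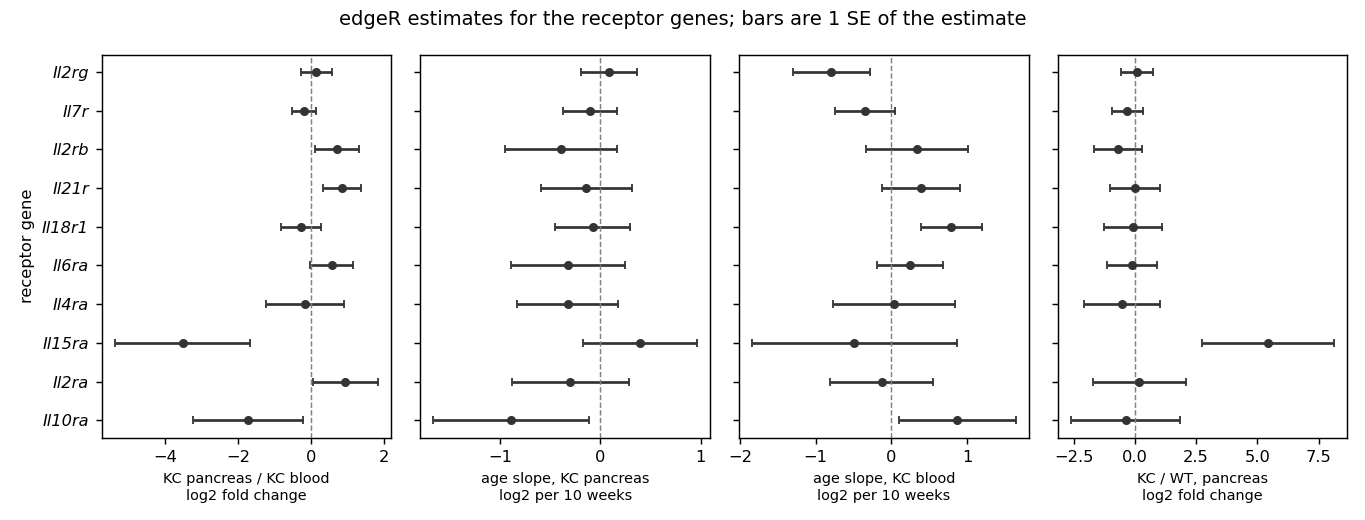
edgeR estimates for each receptor gene with bars of 1 SE: log2 fold change of KC pancreas over KC blood, age slopes in KC pancreas and KC blood in log2 per 10 weeks, and log2 fold change of KC over WT in pancreas. Estimates cluster around 0 except Il15ra, at -3.52 between tissues and 5.45 between genotypes, each with a wide bar.

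KC and WT pancreas were compared over 9 and 30 weeks, the ages both genotypes have. WT had 1 library at each of these ages, so the fit measured no spread between WT libraries. Il15ra was at 5.39, 3.20, 17.6 and 21.1 CPM in the KC libraries of these ages and at 0.475 (9 weeks) and 0.0798 CPM (30 weeks) in WT pancreas, 5 and 1 counts, with no overlap. The fitted log2 fold change was 5.45 (SE 2.69), with p = 0.0427 before and 0.861 after adjustment by edgeR. DESeq2 gave 5.68 and an adjusted p of 0.0149, the lowest of a range of 0.0149 to 1 over the alternatives. That was the only call DESeq2 made among the receptor genes to which it gave a p in the 6 tested comparisons. In KC against WT pancreas DESeq2 called 175 of 9553 genes. All of the 5 KC libraries of 13 and 20 weeks, which have no WT counterpart, lay between 0 and 0.517 CPM, beside 0.0798 and 0.475 CPM in WT. The WT pancreas libraries are of set 1 and the KC libraries of 9 and 30 weeks of set 2, so trace set and genotype cannot be told apart here. Myeloid markers summed to 4.37 and 5.82 CPM in WT pancreas, within the range of the KC libraries of 9 weeks up to 27.5 CPM but below 65.2 and 499 at 30 weeks. Acinar cell markers summed to 3094 and 845 CPM in WT pancreas and to at most 59.0 CPM in the 4 KC libraries. The ribosomal RNA gene Rn45s took 18.2% and 16.99% of WT pancreas reads and at most 12.1% in KC pancreas. The median over all genes tested was 0.41 (KC over WT), with 58.9% of estimates above 0. The part of these markers and of Rn45s in the Il15ra difference was not tested.

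The other 9 receptor genes had KC over WT estimates between -0.69 and 0.19 in pancreas, with SEs of 0.64 to 2.24. edgeR called 0 of 10 receptor genes in that comparison, where 0.226% of 12374 genes were called. Il15ra alone of the 10 had an unadjusted p under 0.05, beside 717 of all genes tested. In blood at 30 weeks 2 KC libraries stood against 1 WT library, and edgeR called 0 of 10 receptor genes and 0% of 12496 genes (0 receptor genes and 354 genes at an unadjusted p under 0.05; DESeq2 0 and 10). The estimates were 1.37 (SE 2.56) for Il15ra, 1.34 (SE 1.72) for Il18r1 and -1.08 (SE 2.19) for Il4ra, each smaller than its SE. The WT blood library is of set 1 and the KC blood libraries of 30 weeks of set 2. Trace set and genotype cannot be told apart in blood either.

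The WT pancreas and WT blood libraries of 30 weeks share a title number and have no replicate, so they were described without a test. Il15ra had 1 count in pancreas and 74 in blood, a log2 ratio of -4.81 with a prior count of 1 (exact 95% binomial interval -11.1 to -3.27, counting error only). Il10ra had 24 and 234 counts, a log2 ratio of -2.82 (interval -3.54 to -2.26). Il4ra was at -1.56 and Il6ra at -1.07, and the other 6 lay between -0.41 and 0.31. Thus 2 of 10 receptor genes passed a log2 ratio of 2, against 32.6% of 10537 genes with at least 20 counts in the pair, and the median over those genes was -0.49.

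Chains that share a receptor, or are often set against each other as Il7r and Il2rb are, were compared in pairs across libraries. The 10 pairs of chains gave 20 correlations of log2(CPM + 1), in 12 KC pancreas and 9 KC blood libraries, with Pearson's r from -0.31 to 0.66. None passed after adjustment over the 20 by permutation tests, which were exact in blood and used 100000 resamples in pancreas. The smallest adjusted values were 0.598 for Pearson's r and 0.743 for Spearman's rho. Il6ra and Il6st in blood had r = 0.64 (permutation p = 0.0598), rho = 0.60 (p = 0.0968), and r = 0.62 without the 2 libraries farthest from the median. On TMM-scaled totals this r was 0.19 (permutation p = 0.627). Within the 6 blood libraries of trace set 2 r was 0.84, and set 1 had too few libraries, 3. Il2rb and Il15ra in blood had r = 0.66 (permutation p = 0.0556) and rho = 0.48 (p = 0.194), which rested on the 4-week libraries, since r was -0.06 without the 2 farthest libraries. Il18r1 and Il18rap had r = 0.55 (permutation p = 0.124) and rho = 0.68 (p = 0.0503) in blood, and r = 0.20 within set 2 and 0.11 on TMM-scaled totals (permutation p = 0.777). On TMM-scaled totals the smallest adjusted value of the 20 was 0.0904, for Il7r and Il2rg in blood, with r = 0.85 (permutation p = 0.00452) beside 0.34 on unscaled CPM.

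Among 5257 genes with a median of at least 10 CPM, the genes whose level ordered the 24 libraries most like a receptor's were listed for the 3 most abundant receptors, as a description of libraries that share depth and trace sets. For Il2rg they were Map1lc3b (Spearman rho 0.68), Mrpl30 (0.67) and Arf6 (0.64). For Il7r they were Lrrc58 (0.66), Sap130 (0.62) and Rnft1 (0.61). For Il2rb they were Nbr1 (0.76), Pik3r5 (0.75) and Egln1 (0.73).

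Downstream of the receptors, 123 genes in 6 lists covered partner chains, JAK and STAT factors, SOCS inhibitors, targets, ligands and the MyD88 branch. Between KC tissues 92 of them were tested and 0 were called by edgeR (11 at an unadjusted p under 0.05), with a median log2 fold change of -0.09. For the age trend 82 were tested in each tissue, with 1 called in pancreas and 0 in blood (9 and 5 at an unadjusted p under 0.05). None was called for the difference of trends (92 tested, 9 unadjusted), in KC against WT pancreas (97 tested, 6 unadjusted) or in blood (95 tested, 2 unadjusted). By list, the counts tested between tissues were 29 partner and other receptor chains, 11 JAK and STAT genes, 19 inhibitors, 24 targets, 1 ligand and 8 genes of the MyD88 branch, with median log2 fold changes of 0.04, -0.04, -0.17, 0.01, 0.55 and -0.97 beside -0.12 for all genes. None of these lists had a called gene there, and 7, 0, 1, 1, 0 and 2 genes had an unadjusted p under 0.05. Over all genes tested, 1089 of 11059 had an unadjusted p under 0.05 between tissues. That count was 855 of 9555 for the pancreas trend, 870 of 9933 for the blood trend and 921 of 11059 for their difference. For KC against WT pancreas it was 717 of 12374.

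The signalling genes were described by their medians in KC pancreas and KC blood. Among the kinases, Jak1 had medians of 1414 CPM in KC pancreas and 1385 in KC blood, and Jak3, which binds the gamma chain, 16.3 and 7.07. Stat5b, the main factor of IL-2 and IL-7 signals together with Stat5a, had 83.1 and 42.4 CPM, and Stat5a 26.1 and 22.6. Stat3, used by IL-21 and IL-6, had 206 and 191 CPM. Stat4, which serves IL-12, had 277 and 229 CPM, and Stat6, which serves IL-4, 35.5 and 33.1 CPM. Jak2 had 71.4 and 121 CPM and Tyk2 1.13 and 2.37. The STAT factors named here were thus present in both tissues, with ranges that overlapped, and 25 of 28 such signalling genes could be tested between tissues with 0 called by edgeR and 1, Il12rb2, at an unadjusted p under 0.05.

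Of the feedback inhibitors that cytokine signals induce, Socs1, Socs2 and Cish were low at the median and high in single libraries. Socs1 had medians of 0.503 and 1.51 CPM and reached 205.5 CPM in Sample_43B8. Socs2 had 0.124 and 0.206 CPM with 94.5 CPM in Sample_303P8, and Cish 1.51 and 0.913 CPM with 41.6 CPM in the same library. That library of 30 weeks was also the only one with Il2 transcript above 1 CPM, at 49.6 CPM, while Il21 and Il15 stayed at or below 1.22 CPM in all KC libraries. Socs3, an inhibitor of IL-6 signals, had 17.9 and 50.5 CPM. Among survival targets, Bcl2 had 506 and 837 CPM, Mcl1 1163 and 1264 CPM, and the kinase Pim1 6.49 and 19.3 CPM. Of other receptor chains, the IL-12 chain Il12rb2 had 1.49 and 14.1 CPM with 470 CPM in Sample_133B8, and its partner Il12rb1 0.437 and 0.103 CPM. The IL-27 chain Il27ra had 117 and 95.1 CPM, the interferon gamma chain Ifngr1 89.2 and 251 CPM, Il10rb 5.91 and 21.3 CPM, and the IL-33 receptor Il1rl1 2.04 and 1.25 CPM.

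The called gene was Csf2rb2, a beta chain for IL-3 whose sequence is close to that of Csf2rb, so that reads of the pair may be divided uncertainly. Its slope in KC pancreas was -6.33 log2 per 10 weeks (SE 1.10; edgeR adjusted p = 0.0110). It was at 117, 105 and 11.5 CPM at 4 weeks in Sample_41P8, Sample_42P8 and Sample_43P8, and at 0 to 1.22 CPM in the 9 later pancreas libraries. With trace set as a term the slope was -4.98 and the adjusted p 0.420, the highest of the alternatives, which began at 6.89e-06. Csf2rb was at 86.5, 12.8 and 64.6 CPM in the 3 KC pancreas libraries of 4 weeks. Those 3 libraries also held 1312, 7065 and 3754 CPM of acinar cell markers, while KC pancreas libraries of later ages held at most 471, and the part of other cells in the slope was not tested.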

How the data were processed

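Libraries of sorted T cells were grouped by the tissue and age in their labels. The deposited files give read counts per gene symbol, which the authors made with no normalisation; per the submitters' processing notes the tools were TopHat, SAMtools, HTSeq and DESeq and the build mm10, with versions, annotation and strand use not given in the sources used here. CPM were computed on the total of 24421 genes, and lengths are merged exons of GENCODE annotation of that build. Depth of 6352070 to 16716169 assigned reads bounds counting precision. Tests used the two-sided quasi-likelihood test of edgeR 4.0.16 under R 4.3.3, robust, after TMM scaling and removal of low genes by filterByExpr (minimum count 10), over all genes, with Benjamini-Hochberg adjusted p under 0.05 called. The 21 KC libraries were fitted with tissue and a factor of age. Slopes on weeks were fitted within a tissue, scaled to 10 weeks, and their difference was tested as an interaction. KC and WT were compared at shared ages in fits of all libraries of a tissue. The SE is the log2 estimate over the square root of F. Correlations used permutation tests. Alternatives were RLE scaling, other filters, DESeq2 1.42.0, trace set terms, a title number block and leaving out each library. The fits were tested on simulated counts. The receptor genes and lists were chosen with earlier results of these data known, and all 10 are named with genes from a panel of 28 of their pathways, of which some are not reported here by name; Csf2rb, Csf2rb2 and the test of any age difference were added after values were seen.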

Additional observations from a re-analysis of the deposited data

Results flagged for a closer look

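Among the 9 KC blood libraries, Sample_131B8 stood apart in Il2rg, with 2867 CPM against at most 1257 CPM in the others, a gap of more than the critical share of the range. Il2ra likewise stood apart in Sample_302B8, at 10.2 CPM against at most 6.12 CPM. Both gaps passed on the CPM scale, and neither did on the log2(CPM + 1) scale. Chance alone marks about 1 in 20 groups, and 10 genes were examined.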

How the results depend on the processing

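Of 140 alternative fits of the 6 tested comparisons, 139 called 0 receptor genes, and DESeq2 called 1, Il15ra, in KC against WT pancreas; it gave no p to 1 receptor gene between tissues, 1 for the pancreas trend and 2 for the blood trend. For pancreas against blood within trace set 1, Il2rg was at -1.25, Il18r1 at 0.58 and Il10ra at 0.27, and within set 2 Il2rb was at -0.23, Il7r at 0.15, Il4ra at 0.20 and Il6ra at -0.51, each of opposite sign to the estimate over all KC libraries. Il2rg was at -0.19 with no age term and -0.043 with the trace set as a term, and Il4ra at 0.12 with no age term. With the trace set as a term the slopes of Il2rb in pancreas and Il2rg in blood became 0.47 and 0.29, and without 4 weeks that of Il2rb in blood became -0.45. Leaving out 1 library at a time, the tissue estimates ran from -0.10 to 0.78 for Il2rg, from -0.28 to 0.029 for Il7r, from -0.89 to 0.27 for Il4ra and from -0.70 to 0.051 for Il18r1, the Il2rb slope in blood from -0.046 (without Sample_42B8 or Sample_43B8 it was below 0) to 0.87, and Il15ra in KC against WT blood from -3.16 (without Sample_303B8) to 2.34. The cause of these reversals was not tested. Of 25 printed estimates, 14 kept their sign in all alternatives. No receptor gene was called by edgeR in these fits. Unadjusted p-values of Il2rg within the sets were 0.0148 and 0.00506 (adjusted 0.348 and 0.545). In the test of any age difference in KC blood, receptor genes called ran from 0 to 1 with 1 library left out (Il2rg without Sample_132B8).

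With title number as a block (9 KC pairs), 0 receptor genes were called between tissues and 0 for the difference of trends, and the genes called in all went from 10 to 14 and from 6 to 0. Between libraries of a shared number, departures from the mean of their group had correlations of -0.05 to 0.01 over 7 pairs. The 2 that correlated best with their own number were those of 30 weeks. Departures in groups of 2 mirror each other, so both gave the same value, 0.0117. With 2 or 3 libraries in a group, this check cannot decide whether a shared number means a shared animal. The counts of all genes called moved by more than 1.5 times with several choices. Between tissues the 10 became 505 with DESeq2, 34 without a filter, 65 with no age term, 4 without 4 weeks, and 6 and 2 within the sets. The 28 of the pancreas trend became 735 with DESeq2, 686 without a filter, 18 on log2 of weeks, and 0 without 4 weeks or with the set as a term. The 0 of the blood trend became 412, 102 and 16 with DESeq2, no filter and log2 of weeks. The 6 of the difference became 343 with DESeq2, and 0 or 1 with RLE scaling, at least 1 CPM, no robust estimation, log2 of weeks, no 4 weeks or the set term. The 28 of KC against WT pancreas became 175 with DESeq2, 2 with all KC libraries, 15 at 9 weeks and 8 at 30 weeks, and the 0 in blood became 10 with DESeq2. Leaving out 1 library gave 6 to 21, 10 to 31, 0 to 12, 0 to 13, 8 to 29 and 0 to 2 in the same order. RLE scaling moved the median of all genes from -0.12 to -0.24 for the blood trend and from 0 to 0.18 for KC against WT blood. Depth limits Il15ra and Il10ra, which had few counts in many libraries, and to a lesser degree Il2ra, with 27 to 346 counts per library.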
